A study of Mus musculus with 82 samples.

Results

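The Epb41-Eya3 locus is a stretch of 1 Mb on mouse chromosome 4, from 132000001 to 133000000 on GRCm38, in which Adnp peaks are crowded. It was chosen by the number of Adnp peaks listed there, and 10 genes along it were named from that list: Epb41, Ythdf2, Gmeb1, Taf12, Rcc1, Phactr4, Sesn2, Eya3, Rpa2 and Stx12. All 10 were found by symbol among the 49214 genes of the annotation used. The locus held 57 of the 15026 listed Adnp peaks and 1 of the 2047 listed HP1γ peaks. Since the peak list chose the locus and its genes, the number of peaks and what follows from it (density, gaps, runs and the members that hold peaks) are given as a description, without a test.

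The series profiled embryonic stem cells of a hybrid 129-C57BL/6 background, grown in 2i medium with LIF, in 82 samples that the labels put in 32 groups. The lists used here come from untreated cells in which a FlagAvi tag was added to the protein of interest, and tagged protein was captured on streptavidin beads from crosslinked chromatin sonicated to about 300 bp on average. The Adnp list is tied to 3 ChIP samples of Adnp FlagAvi cells, labelled wild type. The HP1γ list, restricted by its authors to peaks without the Adnp motif, is tied to 3 samples of Cbx3 FlagAvi, Adnp KO cells and 3 samples of Cbx3 FlagAvi cells labelled wild type. Each list pools its replicates, so an error between replicates cannot be given for any value, depth is unknown, and the genotype behind an HP1γ peak is not known. The labels of these samples do not say how many clones were used. The RNA-seq, ATAC-seq and other ChIP-seq samples were not analysed here.

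Adnp is a zinc finger and homeodomain protein that binds DNA and, in embryonic stem cells, is known as part of the ChAHP complex with the remodeller Chd4 and HP1 proteins. HP1γ, encoded by Cbx3, is a chromodomain protein that binds methylated histone H3 and is found in heterochromatin and in transcribed genes. A peak list gives places where a protein was enriched over a threshold, and says nothing by itself of the activity of the gene beside it.

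Adnp peaks reached into the promoter windows of 2 protein-coding genes of the locus and the HP1γ peak into those of 1, and these windows are shown because, with a second Ppp1r8 window, they are the ones of the 27 RefSeq windows of the locus that a listed peak overlaps. Each is the GRCm38.p6 window from 250 bases before to 50 bases after an annotated start, written 5′ to 3′ on the strand of the gene, with the bases under the peak in capitals. The Gmeb1 window, chr4:132261500-132261799 on the minus strand, has 169 bases under an Adnp peak. The Rab42 window, chr4:132303307-132303606 on the minus strand, has 102 bases under another. The first of 2 Ppp1r8 windows, chr4:132843120-132843419 on the minus strand, has 172 bases under the HP1γ peak.
Gmeb1: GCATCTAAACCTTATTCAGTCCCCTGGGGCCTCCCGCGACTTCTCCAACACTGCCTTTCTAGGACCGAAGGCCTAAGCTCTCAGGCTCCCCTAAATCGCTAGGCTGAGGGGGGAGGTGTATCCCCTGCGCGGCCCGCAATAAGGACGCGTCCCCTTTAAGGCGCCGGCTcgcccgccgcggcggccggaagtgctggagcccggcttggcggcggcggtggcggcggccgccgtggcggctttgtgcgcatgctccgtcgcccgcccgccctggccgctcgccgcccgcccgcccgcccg
Rab42: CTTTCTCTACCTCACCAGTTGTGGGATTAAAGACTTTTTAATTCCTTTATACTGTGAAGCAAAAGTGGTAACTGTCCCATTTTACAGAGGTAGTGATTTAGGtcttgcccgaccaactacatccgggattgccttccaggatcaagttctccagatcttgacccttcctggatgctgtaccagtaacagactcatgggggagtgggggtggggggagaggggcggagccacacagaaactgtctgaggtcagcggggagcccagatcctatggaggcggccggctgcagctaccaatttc
Ppp1r8: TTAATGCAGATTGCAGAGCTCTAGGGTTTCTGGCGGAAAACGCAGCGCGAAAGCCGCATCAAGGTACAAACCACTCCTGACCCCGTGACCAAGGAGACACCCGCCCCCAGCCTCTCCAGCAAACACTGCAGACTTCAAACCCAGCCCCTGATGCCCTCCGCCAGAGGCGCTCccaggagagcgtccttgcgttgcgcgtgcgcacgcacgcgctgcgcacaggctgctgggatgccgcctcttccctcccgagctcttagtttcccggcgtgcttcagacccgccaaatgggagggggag
In each window the capitals run from the upstream edge and stop short of the start, so the peak reaches the promoter from the upstream side. Of all 32619 promoter windows of the table, 0.981% were overlapped by an Adnp peak and 0.38% by an HP1γ peak.

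A short core of the word known for Adnp sites was searched on both strands of these windows as CGCCCTC, and more loosely as CGCCCNC, which takes in CGCCCTC. The Gmeb1 window held 6 matches of CGCCCNC, all on the strand shown, and 0 of them lay under the Adnp peak. The Rab42 window held 0 matches. The Ppp1r8 window held 1 match, and that match lay under the HP1γ peak. CGCCCTC was present in 5 of the 12 windows of member genes and in 10.3% of all promoter windows. CGCCCNC was present in 7 of those 12 windows and in 31.4% of all windows. Over all 27 windows of the locus, CGCCCTC was present in 6 and CGCCCNC in 16. Among the 320 promoter windows of the whole table that an Adnp peak overlaps, CGCCCTC was present in 18.4% and CGCCCNC in 59.1%. None of these shares is adjusted for base composition. In the windows of the locus, G and C made up from 46% (Snhg3) to 79.3% (Oprd1) of the bases. The member windows with CGCCCTC belong to Epb41, Ythdf2, Sesn2 and Eya3, and none of them was overlapped by an Adnp peak. A match is a description of letters and not of a binding site, and most peaks of the locus lie outside these windows, where no sequence was read.

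The locus stood near the top of the list by density. It held 57 Adnp peaks, against a median of 2 per window (upper quartile 8, mean 5.82) when chromosomes 1 to 19 and X were cut into 2581 windows of 1 Mb, of which 926 held none. It ranked 2nd, below 1 window with 64 and just above windows with 56, 55 and 51. Of the adjoining windows, the 1 below it held 6 Adnp peaks and the 1 above it held 42. The next 4 windows upward held 37, 35, 27 and 23 peaks, so counts fell step by step above the locus. Below it, the window with 6 peaks held 5 protein-coding genes, and the windows further down held 28, 27 and 4 peaks. Between 100 kb bins of the locus, counts ran from 3 to 10, with 9 and 10 in the bins from 200 to 400 kb above the lower edge.

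**Figure D1:**
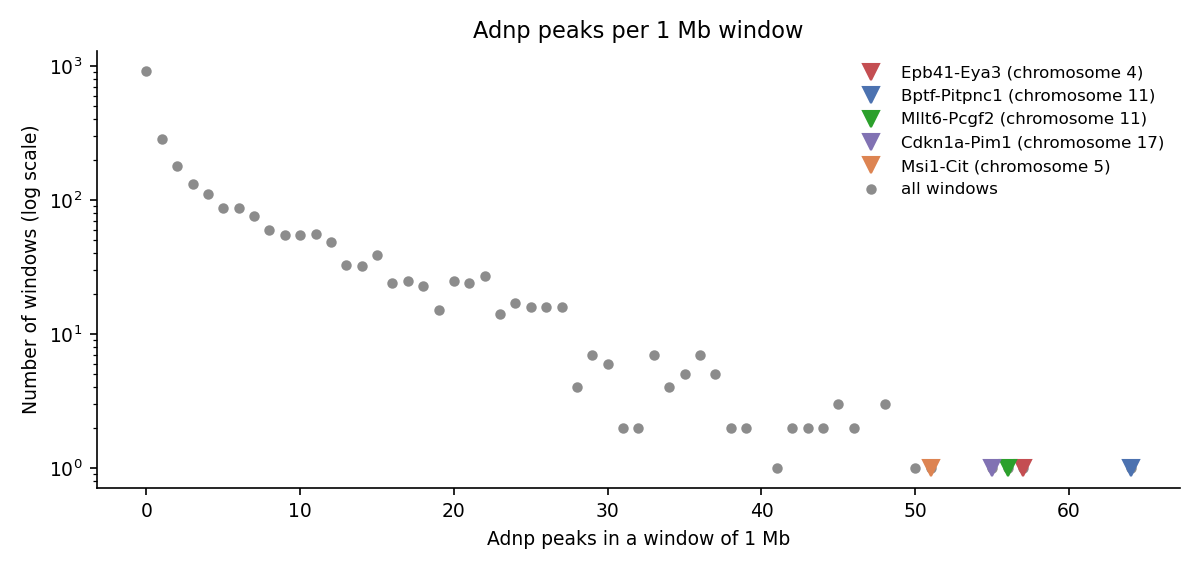
Number of 1 Mb windows of chromosomes 1 to 19 and X (vertical axis, log scale) by the number of Adnp peaks they hold (horizontal axis). Grey points are all windows and triangles mark the 5 densest, among which the Epb41-Eya3 locus holds 57 peaks against a median of 2 over all windows.

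The locus is rich in genes as well as in peaks. By their centres, 22 protein-coding genes lay in it, against a median of 5 over all windows, which ranked it 204th. The locus held 57 Adnp peaks, against a median of 15 over the 221 windows with at least 22 such genes, of which 23 held none. Counting every gene that reaches into the locus, there were 45, of which 23 were protein coding.

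Peaks lay between genes more densely than inside them. Taking protein-coding genes alone, the locus had 36 Adnp peaks in 398 kb outside genes, or 9.05 per 100 kb, and 21 peaks in 602 kb of genes, or 3.49 per 100 kb. Over the whole list the order was the other way, with 0.490 peaks per 100 kb outside protein-coding genes and 0.724 per 100 kb inside them. The whole-list densities take in long stretches between genes and windows that hold no Adnp peak. No density by place is given here for the other dense windows, so the order is not read as particular to the locus. With genes of every type, a peak was counted at a gene end if any part lay within 1 kb of either end, otherwise inside if it overlapped a gene, otherwise between genes. By that rule 11 of the 57 peaks of the locus lay at gene ends, or 19.3% (95% Wilson interval 11.1% to 31.3%), against 13.1% of the other listed peaks. A further 22, or 38.6% (27.1% to 51.6%), lay inside genes, against 50.6% of the other peaks. The remaining 24, or 42.1% (30.2% to 55.0%), lay between genes, against 36.3% of the other peaks. The intervals for gene ends and for the space between genes include the share of the rest of the list, and the interval for the inside of genes does so narrowly. Placed by their centres instead, 12.3% of the locus peaks lay at gene ends, against 10.9% of the others. By centres 49.1% lay between genes, against 37.5%, and 38.6% lay inside genes, against 51.7%. That last share of the others is just above the upper limit of 51.6% for 22 peaks of the locus inside genes. The intervals treat peaks as independent, which neighbours are not, and cover counting error only.

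Those shares stand beside what the locus offers in bases. Gene ends make up 12.4% of its bases, the inside of genes 55.6% and the space between genes 32.0%. The peak density was 8.85 per 100 kb at gene ends, 3.96 inside genes and 7.51 between genes, against 1.23, 0.664 and 0.430 per 100 kb in the whole list. The order of places depends on how a peak is placed. By peak centres, a count per base made after the data were seen, the locus had 5.63 peaks per 100 kb at gene ends, 3.96 inside genes and 8.76 between genes, against 1.01, 0.678 and 0.444 in the list. The space between genes ranked above the inside of genes in the locus and below it in the list by either placing, while gene ends ranked first in the locus when any part of a peak counted and second by centres. With protein-coding genes alone, 5 peaks lay in the 81.9 kb of their ends. These ends reach both inside and outside the genes and share peaks with the space outside them. The count is therefore not compared with the 9.05 per 100 kb outside those genes.

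**Figure D2:**
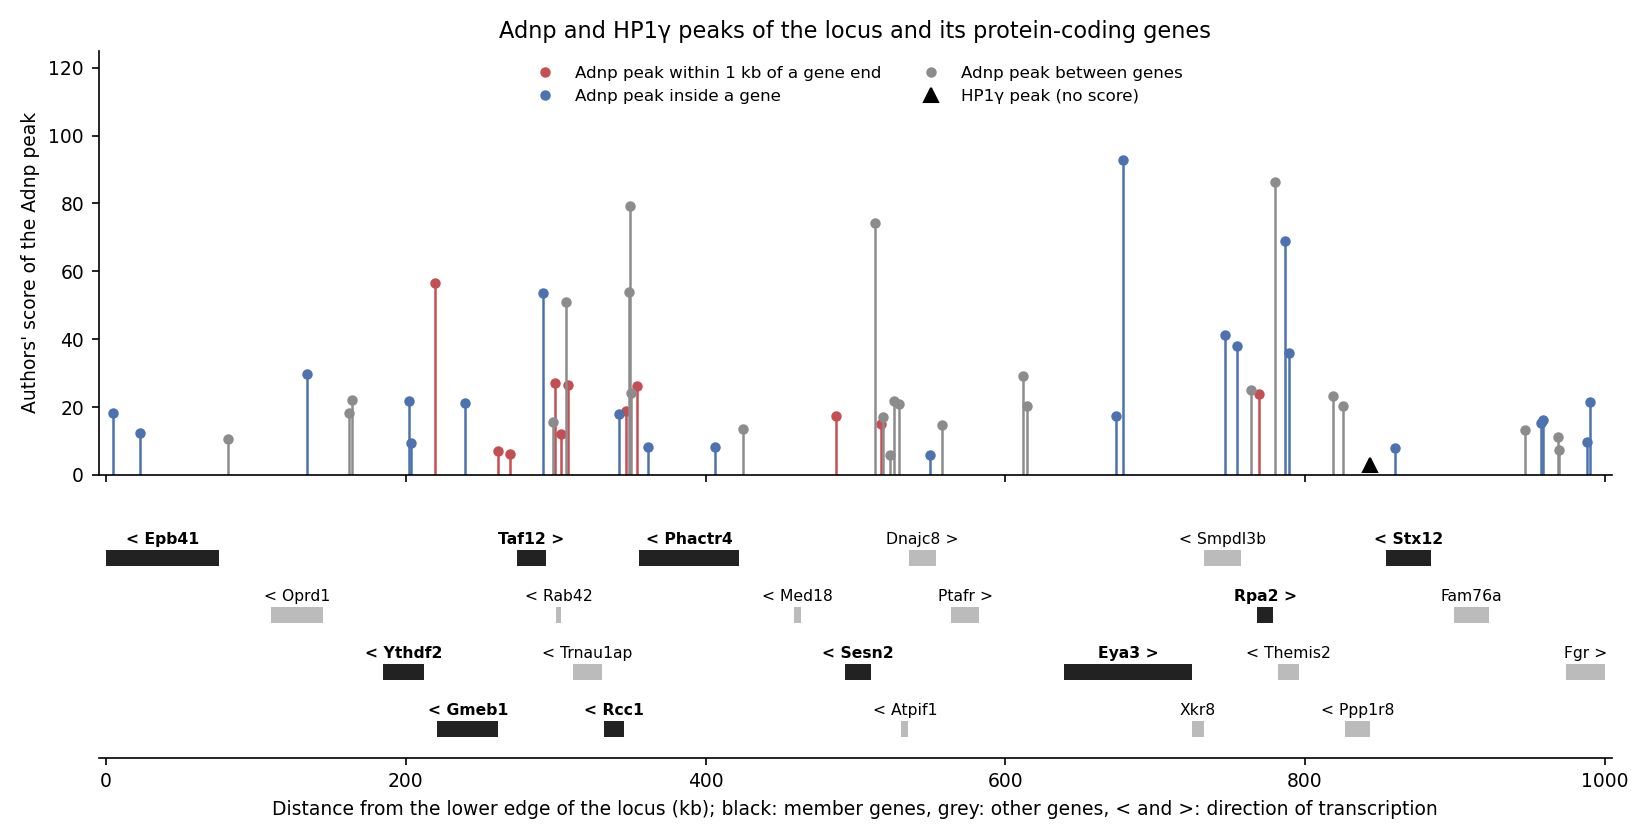
Adnp peaks of the locus by distance from its lower edge in kb (horizontal axis) and authors' score (vertical axis, no unit given), coloured by place, with the HP1γ peak as a black triangle at the foot of the axis and protein-coding genes drawn to scale in rows beneath. The highest scores, up to 92.9, stand at Eya3, past Rpa2, between Rcc1 and Phactr4 and upstream of Sesn2, and wide empty stretches lie around Med18, Eya3 and Fam76a.

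Among the 10 members, 9 had an Adnp peak inside, against 20.7% of all 21523 protein-coding genes. Adnp peaks lay within 1 kb of the ends of 3 members, against 5.38% of all protein-coding genes, and within 5 kb of the ends of 7, against 19.3%. HP1γ peaks lay within 5 kb of the ends of 0 members and of 2.04% of all protein-coding genes. These counts of Adnp peaks follow from how the members were named, and nothing is read from their distance to the background. Of the other 13 protein-coding genes of the locus, which were not named, 5 had one inside, 8 had one within 5 kb of either end, and 4 had neither. The members are longer than these genes, with a median length of 28.9 kb against 18.2 kb. A longer gene has more room for a peak, but the part of length in these counts was not tested. The members were also named from the peak list, so the counts of the 2 sets of genes are not compared.

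Of the genes that act on RNA and transcription, Ythdf2 encodes a reader of methylated adenosine that promotes decay of messenger RNA. It spans 132184916 to 132212256 on the minus strand, and held 2 Adnp peaks, with scores of 21.9 and 9.54, at 37.1% and 33.3% of its length from the start. Both lay in the middle of the gene, 8981 bp or more from its start. Gmeb1 encodes a protein that binds the glucocorticoid modulatory element in DNA, and its gene spans 132221025 to 132261609 on the minus strand. It held 1 peak with a score of 21.2 at 53.6% of its length. A weak peak of score 7.16, at 132261631 to 132262025, lay 82 bp upstream of the annotated start and 22 bp beyond the end of the gene, also inside the noncoding gene Gm28874. Gmeb1 was the single member with a peak over its promoter window. Past its other end, at 1573 bp, stood a peak of score 56.5 at 132219012 to 132219452, which lay 441 bp from the pseudogene Rps15a-ps4.

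Taf12 encodes a histone-fold subunit of the general transcription factor TFIID and spans 132274355 to 132293329 on the plus strand. Its 1 inside peak, at 132291285 to 132291676 with a score of 53.6, sat at 90.1% of the gene, 1653 bp before its far end. Eya3 encodes a transcriptional coactivator with phosphatase activity, and at 85.7 kb it is the second longest member after Epb41. It spans 132639025 to 132724765 on the plus strand and held 2 peaks in its middle. The first had a score of 17.4 at 40.5% of the gene. The other, at 132678566 to 132679050 and 46.4% of the gene, had a score of 92.9, the highest of the locus, and 97.1% of the listed peaks scored lower. The ends of Eya3 were bare: the nearest peaks outside it lay 24379 bp before its start and 21927 bp past its far end.

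Among genes of the nucleus and of genome maintenance, Rcc1 encodes the chromatin-bound exchange factor of the GTPase Ran. It spans 132331919 to 132345750 on the minus strand and held 1 peak, with a score of 17.8, at 26.7% of its length. A peak of score 18.7 lay 952 bp upstream of its start, and 5 peaks lay within 5 kb of its ends. Rpa2, which encodes a subunit of the single-stranded DNA binding protein RPA, spans 132768360 to 132778746 on the plus strand and is the shortest member at 10.4 kb. It had peaks at both sides: 1 of score 23.9 inside the gene, 797 bp after the start, and 1 of score 86.3 at 132779948 to 132780478, 1202 bp past its far end. The 86.3 peak ranks second in the locus by score.

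Sesn2 encodes a stress-induced sestrin that acts upstream of mTORC1. It spans 132492804 to 132510456 on the minus strand and is the member with no Adnp peak inside. Its nearest peak, at 132512889 to 132513350, lay 2433 bp upstream of its start with a score of 74.3. That peak, the fourth of the locus by score, is the first of 6 that lie in the space between Sesn2 and Atpif1, which encodes an inhibitor of the mitochondrial ATP synthase.

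The remaining members act at membranes and on the cytoskeleton. Epb41 encodes a protein that links the spectrin and actin skeleton to the membrane, and at 152 kb it is the longest member, from 131923413 to 132075346 on the minus strand. It held 3 peaks with scores of 18.3, 18.3 and 12.3, of which the first, at 131969464, lies below the lower edge of the locus. Phactr4, which binds actin and protein phosphatase 1, spans 132355922 to 132422446 on the minus strand. Its 2 inside peaks were weak, with scores of 8.16 and 8.28, and a peak of score 13.4 lay 2259 bp upstream of its start. Stx12, which encodes a syntaxin of endosomes, spans 132854064 to 132884458 on the minus strand, and held 1 weak peak, with a score of 8.07 at 79.6% of its length. The weakest inside peaks of the members were thus those of Stx12 and Phactr4, and between 3.97% and 4.52% of listed peaks scored lower than these 3.

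**Figure D3:**
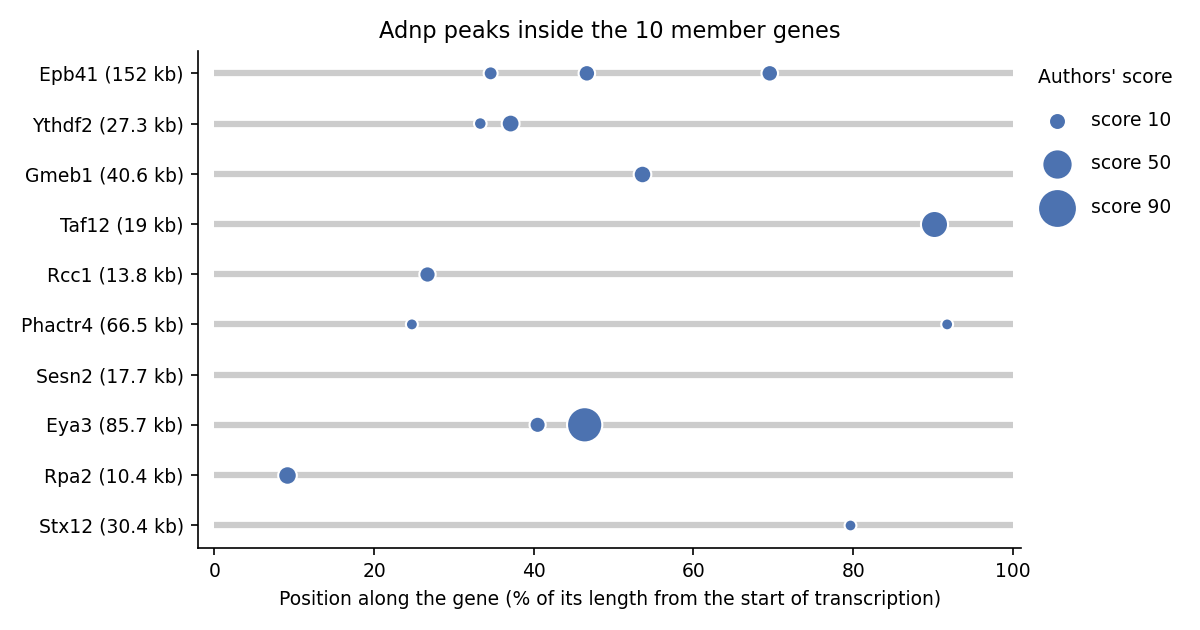
Position of each Adnp peak inside the 10 members, in percent of the gene's length from its start (horizontal axis), with the area of a point showing the authors' score and the gene's length beside its name. Peaks lie anywhere from 9.14% (Rpa2) to 91.8% (Phactr4) of the gene, and Sesn2 has none.

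Inside peaks were thus spread over the length of the genes, with no position common to the members. The 14 of them lay in 463 kb of gene, or 3.02 per 100 kb. Genes related to the members were listed by symbol, and 40 of the 41 listed were found in the annotation. Of these, 26 belong to the same gene families and 14 are other subunits of TFIID or RPA, which share a complex with Taf12 or Rpa2 and are not their paralogues. That division was made after the data were seen. Of the 26 family genes, 10 (38.5%) had an Adnp peak inside, against 20.7% of all protein-coding genes, and 2 (7.69%) had one within 5 kb of either end, against 19.3%. Of the 14 subunit genes, 1 (7.14%) had a peak inside and 3 (21.4%), Taf5, Taf8 and Taf9, had one within 5 kb. The density inside genes was 3.02 peaks per 100 kb for the members, 0.627 for the family genes, 0.221 for the subunit genes and 0.721 for all protein-coding genes. Epb41l4a held 5 peaks, and Epb41l4b, Epb41l5 and Eya2 held 3 each, while Ythdf1, Ythdf3, Gmeb2 and Rcc2 held none. Median lengths were 28.9 kb for the members, 103 kb for the family genes and 13.1 kb for the subunit genes.

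The other protein-coding genes that held peaks lay scattered among the members. Themis2, a signalling gene of immune cells, held 2 peaks with scores of 68.8 and 35.8 in 14.5 kb. Smpdl3b held 2, with scores of 41.4 and 38.0, and Oprd1, the delta opioid receptor gene, held 1 with a score of 29.8. Fgr, which encodes a kinase of the Src family and reaches past the upper edge of the locus, held 2 with scores of 9.79 and 21.4. Dnajc8, which encodes a J-domain protein, held 1 weak peak with a score of 6.00. The 4 genes with no peak inside or within 5 kb of either end were Med18, Ptafr, Xkr8 and Fam76a, and each of them lies wholly in a gap of over 50 kb between peaks.

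Between neighbouring protein-coding genes there were 22 spaces, of which 16 held a peak. The space from Rcc1 to Phactr4 held 5 peaks in 10.2 kb, with scores up to 79.2, and contains Snhg3, a host gene of small nucleolar RNAs. The space from Rab42 to Trnau1ap, with the host gene Snhg12, held 3 peaks in 8.38 kb. The space from Sesn2 to Atpif1 held 6 peaks in 20.1 kb, near the tRNA gene n-TAagc8. The shortest space with a peak, 3.10 kb from Rpa2 to Themis2, held the peak of score 86.3. The 6 spaces without a peak ran from 0.108 kb, between Atpif1 and Dnajc8, to 14.8 kb, between Stx12 and Fam76a.

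End peaks stood beside genes of several types. Of the 45 genes that reach into the locus, 23 are protein coding. Of the 11 peaks at gene ends, 5 lay nearest to a protein-coding gene: 1 each at the members Gmeb1, Rcc1 and Rpa2, and 2 at Rab42, a gene of a small GTPase. The other 6 lay nearest to a noncoding gene or a pseudogene, and no preference for either kind of gene is read from this split. Among these were peaks 341 bp from Snhg12, 441 bp from Snhg3, 111 bp from Rnu11, which encodes the U11 RNA of the minor spliceosome, and 900 bp from n-TAagc8. When protein-coding genes alone were counted, the share of peaks at gene ends was 8.77%.

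Measured from annotated starts rather than ends, 0 of the 57 peaks lay over a start, which allows a share of up to 5.26%, against 1.08% of the other listed peaks on chromosomes with starts in the table. Within 1 kb of a start lay 6 peaks, or 10.5%, against 5.70% of the others. Within 5 kb lay 20, or 35.1%, against 22.8%, and of these 20 peaks 13 were upstream and 7 downstream. No split by side is given for the other listed peaks, so no preference is read from it. Xkr8 and Fam76a have no annotated start among the promoter windows. The median distance to the nearest start was 8.98 kb in the locus and 14.2 kb among the others. A region with more genes has shorter distances to starts, and the part of gene density in this difference was not tested.

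Spacing along the locus was uneven. The 56 gaps between neighbouring peaks had a median of 7.39 kb (quartiles 2.41 and 22.6 kb), against 29.4 kb (8.41 and 90.2 kb) in the whole list. They ran from 261 bp to 86.6 kb, with 7 under 1 kb and 7 over 50 kb. Gaps of at most 10 kb were 32 of 56, or 57.1%, against 27.8% in the whole list. Joining peaks across such gaps gave 14 runs of 2 or more peaks with 46 peaks in all, and 11 peaks stood alone. Peaks in runs had a median score of 21.2 and those alone had 13.4.

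The 5 runs of 4 or more peaks held 27 of the 57. The longest had 7 peaks in 19.6 kb, from inside Rcc1 across Snhg3 into Phactr4, with a median score of 24.1. A run of 6 in 17.1 kb reached from inside Taf12, near its far end, across Rab42 to Snhg12, and had the median score 26.7. Another run of 6, in 16.6 kb, lay between Sesn2 and Atpif1 with a median score of 19.0. The run of 4 in 22.8 kb from Smpdl3b, a phosphodiesterase gene, into Rpa2 had a median score of 31.6. The last run of 4, in 12.4 kb at the noncoding gene Gm36518, was weaker, with a median of 13.3.

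**Figure D4:**
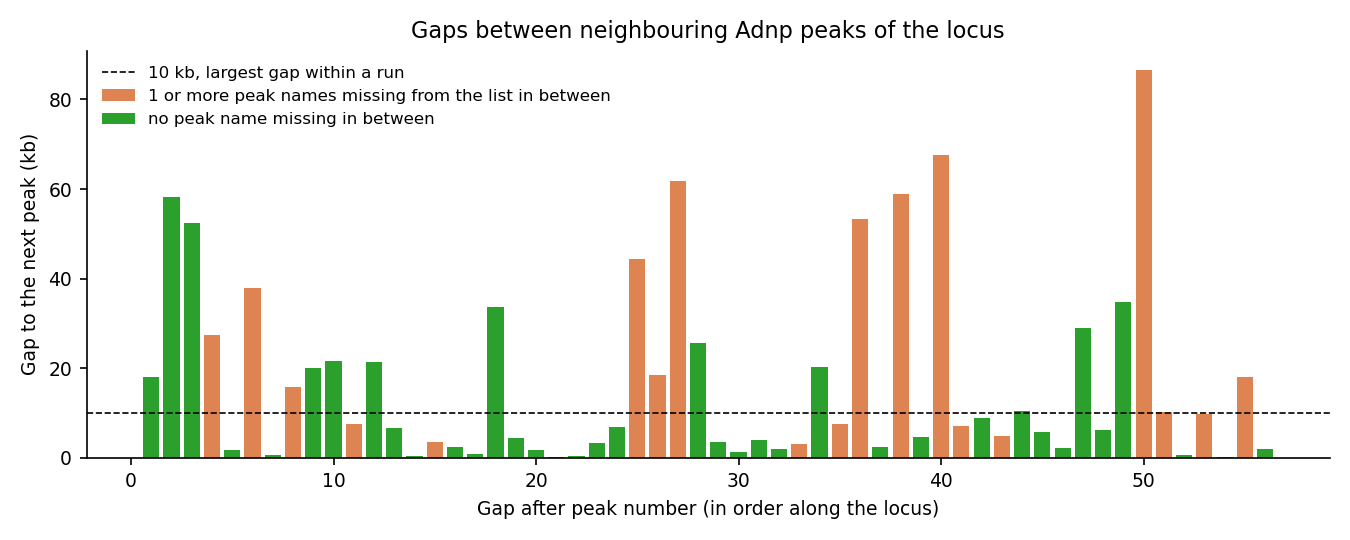
Gap in kb from each Adnp peak of the locus to the next (vertical axis), in order along the locus (horizontal axis). The dashed line marks 10 kb, the largest gap within a run, and orange bars have peak names missing from the list in between; the longest gap, 86.6 kb, has 5 such names.

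The 7 gaps over 50 kb summed to 439 kb, so a large part of the locus held no listed peak. The longest, 86.6 kb from 132860398 to 132946951, takes in most of Stx12 and all of Fam76a. The next, 67.6 kb, covers the upper part of Eya3 and Xkr8, a phospholipid scramblase gene, and a gap of 58.9 kb reaches from the lower side into Eya3, so that the 2 Eya3 peaks stand between wide empty stretches. A gap of 61.7 kb surrounds Med18, a gene of the Mediator complex, and gaps of 58.2, 53.3 and 52.5 kb cover the upper part of Epb41, the receptor gene Ptafr, and most of the opioid receptor gene Oprd1. Peak names in the list carry numbers in genome order, and the list omits some of them. In the locus 57 of 91 consecutive numbers are listed, or 62.6%, against 48.2% of the whole numbering. In the other densest 1 Mb windows, ranked by the same listed peaks, this share ran from 50.9% to 71.1%. Within the 7 long gaps 15 numbers are missing, so an empty stretch is a stretch without a listed peak, and 2 of these gaps (at Epb41 and at Oprd1) have no missing number.

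The median score of the locus lay close to that of the rest of the list, and its upper quartile was lower. The authors' score, whose kind is not stated, had a median of 20.2 in the locus (quartiles 13.3 and 27.0, range 5.88 to 92.9), against 21.2 among the other peaks (13.9 and 33.6, range 3.66 to 565). Of the 57 peaks, 26 (45.6%) scored at or above the median of the list. In the top 10% of the list, at 54.7 or more, were 6 of them (10.5%): the peaks in Eya3, past Rpa2, between Rcc1 and Snhg3, upstream of Sesn2, in Themis2 with 68.8, and beside Gmeb1 with 56.5. In the bottom 10% of the list were 10 of the 57, more than the 6 in the top 10%. Median scores were 18.7 at gene ends, 18.1 inside genes and 20.6 between genes. Peak widths, with a median of 381 bp in the locus and 396 bp among the others, were alike at their quartiles (327 and 469 bp against 328 and 481 bp).

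The locus held 1 listed HP1γ peak. That peak, at 132843248 to 132843694, lay 79 bp upstream of the start of Ppp1r8, a gene of a nuclear inhibitor of protein phosphatase 1, and over both of its promoter windows. A count of 1 in 1 Mb has an exact 95% Poisson interval of 0.0253 to 5.57 per Mb, which includes the list's mean of 0.775 per Mb, and 61.0% of all windows held no HP1γ peak. The nearest Adnp peak was 16.4 kb away, so 0 sites of the locus had both. The HP1γ list leaves out peaks with the Adnp motif, and a lack of overlap between the lists can follow from that choice. The peak names of that list point to the Adnp KO, but the genotype in which a peak was called is not known. The overlap may thus set Adnp peaks of wild type cells beside an HP1γ peak called in cells without Adnp. The next HP1γ peaks on either side lay 2567 kb below the locus and 1351 kb above it.

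The other windows of similar density are set beside the locus as a description. The longest run was 7 peaks in the locus, against 17 in the densest window, at Bptf and Pitpnc1 on chromosome 11, which held 64 peaks. The median gap was 7.39 kb in the locus against 3.10 kb there, and the longest gap was 86.6 kb against 292 kb. The window of Mllt6 and Pcgf2, also on chromosome 11, was close to the locus in spacing: the locus had 14 runs and a longest gap of 86.6 kb, and that window, with 56 peaks, had 13 runs, a median gap of 7.24 kb and a longest gap of 87.5 kb. Gaps of at most 10 kb were 57.1% in the locus, against 44.4% in the window of Cdkn1a and Pim1 on chromosome 17, which held 55 peaks with a median gap of 13.0 kb. The window of Msi1 and Cit on chromosome 5 held 51 peaks with a median gap of 8.62 kb. Peaks between genes were 42.1% in the locus, against 45.3%, 28.6%, 38.2% and 31.4% in these windows in the same order. Peaks inside genes were 38.6% in the locus and 43.8%, 48.2%, 49.1% and 51.0% in the others, so the locus had the lowest share of the 5. Their HP1γ peaks numbered 1 in the locus and 2, 0, 5 and 0 in the others. Bounded by genes instead, the span from Epb41 to Stx12 held 5.31 peaks per 100 kb, against 8.68 from Pitpnc1 to Bptf, 5.18 from Cdkn1a to Pim1, 4.46 from Msi1 to Cit and 1 peak in the 39.3 kb from Mllt6 to Pcgf2.

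**Figure D5:**
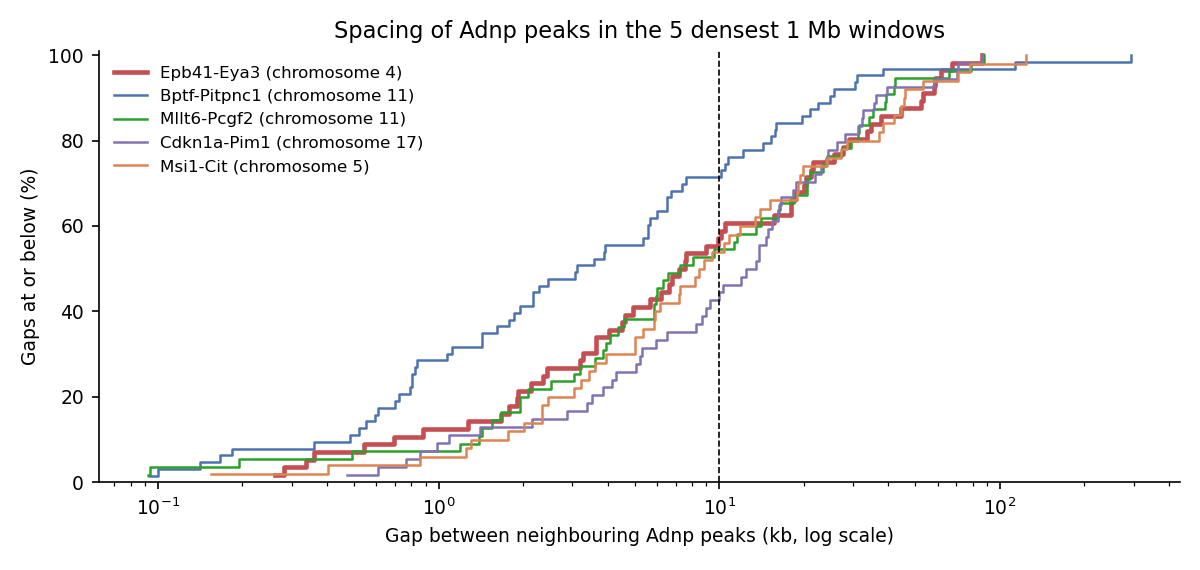
Percent of gaps between neighbouring Adnp peaks at or below a given length (vertical axis) by gap length in kb (horizontal axis, log scale) in the 5 densest 1 Mb windows. The thick line of the Epb41-Eya3 locus, with a median gap of 7.39 kb, runs close to that of the Mllt6 and Pcgf2 window and to the right of the Bptf and Pitpnc1 window, whose median is 3.10 kb.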

How the data were processed

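The values are 2 peak lists, in BED format without header lines, that the authors pooled over replicates. The Adnp list has a score for each peak, deposited by the authors without a statement of its kind, which was used to describe and rank peaks within that list alone. The score of the HP1γ list is 0 for all 2047 peaks as deposited and was not used. The submitters' processing notes name MACS2, edgeR, STAR 2.5.0a, Bowtie 1.0.0 and bcl2fastq 1.17, with mm10 (GRCm38) as the build, and assign them no roles. The sources used here do not give the settings of the peak caller. A caller's threshold decides which weak peaks are listed, and the missing name numbers show that numbered Adnp peaks were left out of the list. In the Adnp list 359 peaks (2.39%) stand after its sorted block, and 2 of them lie in the locus. They are the peak of score 12.3 in Epb41 and the single peak inside Rpa2, which also lies within 1 kb of its start. Both were kept, and the effect of leaving them out was not tested.

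Positions were turned to count from 1 and compared with 49214 genes of a GRCm38.p6 table on chromosomes 1 to 19 and X that start at 3 Mb or later, and with 32619 RefSeq promoter windows, which give strands and starts and hold none on chromosome 18. All 10 members matched both. A run joins peaks with gaps of at most 10 kb. Intervals are 95% Wilson (shares) or exact Poisson (counts), and cover counting error only, as does the limit of 3 counts that a count of 0 allows. The interval functions were tested on simulated data. No p-value was computed. The members, gene lists, motif words and settings were chosen with earlier results of these data known. Genes named are the members, the other genes of the locus that are protein coding or stand nearest to a peak, the listed family and complex relatives, and the genes that bound the other dense windows. For those windows, gene-bounded spans were planned, and 1 Mb windows were added after the span from Mllt6 to Pcgf2 was seen to hold 1 peak. Computations used Python 3.11.15, NumPy 2.4.6, pandas 2.3.3, SciPy 1.17.1 and matplotlib 3.10.9.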

Additional observations from a re-analysis of the deposited data

How the results depend on the processing

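Of 29 alternatives tried over 11 results, 17 were classed as leaving a value in place and 12 as moving it. A share was held to its interval, and a count to a change of less than 1.5 times. No interval is given here for a median, and the change of the median gap to 12.1 kb was classed among the 17. Keeping peaks with a score at or above the median of the list left 26 of the 57 Adnp peaks, 4 runs in place of 14, a median gap of 12.1 kb in place of 7.39 kb, a longest empty stretch of 171 kb in place of 86.6 kb, 5 members with a peak inside in place of 9, and 1 member in place of 3 with a peak within 1 kb of its ends. Joining peaks across gaps of at most 10 kb left 25 regions. The share of peaks at gene ends was 10.5% with ends of 500 bp, 63.2% with ends of 5 kb, 8.77% with protein-coding genes alone and 12.3% by peak centres, in place of 19.3%, and the share inside genes was 24.6% with ends of 5 kb in place of 38.6%. Members with a peak near an end numbered 1 at 500 bp and 7 at 5 kb. No paired analysis was possible because each list pools its replicates and carries no replicate number. The pooled lists give no depth and no error between replicates, and listed peaks are a subset of those numbered, so a stretch with missing numbers may hold peaks that were numbered and not listed.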
